A study of Rattus norvegicus with 20 samples.

Results

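Cultured rat progenitor cells grown at high density (HD) were compared with low-density CCg progenitors (LD), neither of them labelled as treated. The comparison took the 10 arrays with HD or LD in their titles out of the 20 arrays of the study, 6 of HD and 4 of LD. Log2 values of arrays with one group and one title number were averaged into what is here called a culture. There are HD cultures 1, 2 and 4 and LD cultures 1, 3 and 4. The labels give no tissue, strain, age, cell density, passage or medium, and leave unsaid whether each number was grown separately. The p-values therefore cover the spread of these samples, which may be technical. The remaining arrays hold LD cells given FBS, usually fetal bovine serum, toward astrocytes (6 arrays, 4 cultures) or RA/Fsk, usually retinoic acid with forskolin, toward neurons (4 arrays, 4 cultures). They serve here for the estimate of spread and as levels to set beside HD and LD. The labels name CCg for LD and not for HD, so density and CCg cannot be told apart as the source of any difference below.

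Neural progenitors divide in response to fibroblast growth factor 2 (FGF-2) and stop when it is withdrawn or when serum, retinoids or other signals turn them toward glia or neurons. Dense cultures condition their own medium with secreted factors and press the cells into contact, while sparse cultures depend more on what is added. In the literature on adult rat neural progenitors, CCg is the name of a glycosylated form of the protease inhibitor cystatin C that acts beside FGF-2 on sparse cells. The labels do not expand the name.

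Levels are the deposited linear intensities of a rat oligonucleotide array on which one gene can have several probe sets. In the text, probe sets of a gene are numbered from the brightest (1) downward, culture values follow the order HD 1, 2, 4 and LD 1, 3, 4, and a difference is HD minus LD on the scale of log2(intensity + 4.99) with its standard error. Intensities of different probe sets are not comparable as amounts of RNA. Tests are limma's moderated test over 8740 probe sets with Benjamini-Hochberg adjustment, and "higher", "lower", "rose" and "fell" without further words mean an adjusted p under 0.05. Each call was repeated under up to 17 alternatives, of which 6 left out 1 culture, and the range of its adjusted p over them stands beside it. Where leaving out a culture, or the GAPDH covariate described below, ended a call, this is stated at the end of the group of genes. The counts for the other settings stand in the closing part. In these extracts of whole cultures, fewer cells of a type and less RNA per cell cannot be told apart.

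Arrays of one HD number correlated at r = 0.965 to 0.975 over all probe sets and those of LD number 1 at 0.952, against 0.955 to 0.964 between HD numbers, 0.940 to 0.957 between LD numbers and 0.920 to 0.960 between HD and LD. The RNA-integrity controls moved with the groups. The 5′ minus 3′ signal of GAPDH was 0.05, -0.04 and -0.20 log2 in HD and -0.21, -0.47 and -0.30 in LD, and that of beta-actin differed in the same direction by 0.26 log2. Groups did not overlap in either control (2-sided exact permutation p = 0.1, the smallest that 3 against 3 cultures can give). The hybridisation spikes lay 0.66 log2 lower in HD, also without overlap. The part of RNA integrity in the differences below was tested only by a fit with the GAPDH value as a covariate, which gave 79 calls, 23 higher and 56 lower, 44 of them among the 75 calls described below. Over all probe sets the median difference was -0.08 log2. Ordered by level into 4 equal bins, probe sets had medians of -0.13, -0.17, -0.07 and 0.00 from the dimmest bin to the brightest, so small differences below are to be read against these medians.

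Few transcripts passed the test between HD and LD progenitors, and those that did fell into 2 unlike sets. Of 8740 probe sets 75 passed (0.858%), 38 higher in HD (0.435%) and 37 lower (0.423%). Of the 38 rises 33 carried a single gene symbol, for 30 genes, 4 carried several symbols and 1 carried none. The 30 genes include enzymes of lipid synthesis, parts of growth-factor and phosphoinositide signalling, and proteins of membrane traffic. They are described below by role, in groups made after the calls were seen and without a test of any role. The median of all 38 rises was 1.21 log2 (0.64 to 2.54) and 24 of them exceeded 2-fold. The 37 falls were larger, with a median of -2.11 log2 (-4.22 to -0.94) and 35 past 2-fold, but only 10 of them carried a single gene symbol, for 9 genes. None of the 38 rises and 12 of the 37 falls (32.4%) sat on probe sets whose identifier marks them as shared by a sequence family, against 2.24% of all probe sets. By brightness both sets lay mostly in the brightest of 4 equal bins of probe sets, with 24 rises and 21 falls. They differed in the dimmest bin, with 0 rises and 6 falls.

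**Figure D1:**
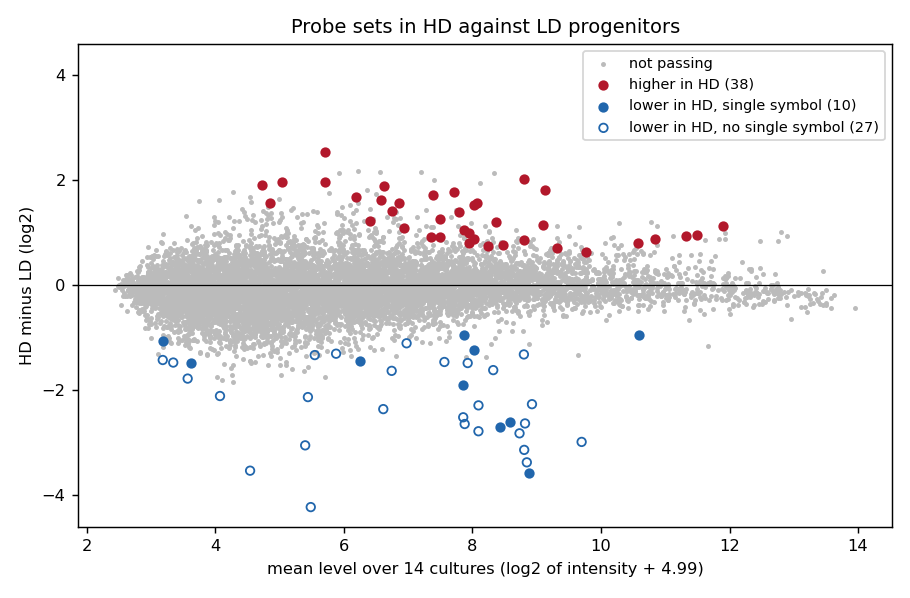
Difference between HD and LD progenitors (y axis, log2) against the mean level over 14 cultures (x axis, log2 of intensity + 4.99) for 8740 probe sets, 1 point each. The 38 rises (red) lie mostly in the brighter part of the array, and the falls without a single symbol (27 open blue circles) reach lower than any rise reaches upward.

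In all 75 called probe sets the 3 HD cultures lay wholly above or wholly below the 3 LD cultures, as they did in 1719 of 8740 probe sets (19.7%, 7.81% with HD higher and 11.9% with HD lower). At an unadjusted p under 0.05, 1209 probe sets differed. The number of calls rested on single cultures. It was 23 without HD culture 4, 33 without LD culture 3, 41 without HD culture 2, 45 without LD culture 1, 58 without HD culture 1 and 104 without LD culture 4. The probe set just inside the threshold was one of Gnai2 (adjusted p = 0.0499), and the one just outside was of Smad1 (adjusted p = 0.051).

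The treated cultures were set beside the calls to see which of the 2 progenitor groups stood apart. In 17 of the 38 rises all LD cultures lay below all 11 other cultures of the study (1.27% of all probe sets did so), and in 11 all HD cultures lay above all 11 others (1.61%). In 27 of the 37 falls LD lay above all other cultures (1.85%), and in 2 HD lay below all others (1.1%). Since HD and LD did not overlap in any call, part of these patterns was fixed by the selection. Of the 683 probe sets with HD wholly higher, LD lay below all others in 111 and HD above all others in 141. Of the 1036 with HD wholly lower, LD lay above all others in 162 and HD below all others in 96. The rises thus included both transcripts low in LD alone and transcripts high in HD alone, and 10 with neither pattern, while most falls were transcripts high in LD. The treated groups derive from LD cells, and their own differences from LD share the LD cultures with those of HD.

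Scd2, Acly, Dhcr7, Slc27a1, Aldh3a2 and Lta4h, 6 of the 30 genes that rose, act in lipid synthesis or handling and were grouped after their values were seen. In Scd2, Acly, Dhcr7 and Lta4h the called probe sets were highest in HD, above all 11 other cultures. Scd2, the stearoyl-CoA desaturase that puts the double bond into newly made fatty acids in brain, gave 1259, 1104 and 1184 in HD and 277, 202 and 425 in LD on probe set 4. The lowest HD culture was more than 2-fold above the highest LD culture, and the treated cultures reached 201 to 349 in FBS and 200.2 to 706 in RA/Fsk. On this probe set Scd2 differed by 2.02 ± 0.38 log2 (adjusted p = 0.0147, range 0.000787 to 0.124). Probe set 5 of Scd2 gave 474, 493 and 606 in HD and 189.9, 127 and 233 in LD, at 1.53 ± 0.28 log2 (adjusted p = 0.0127, range 0.000774 to 0.103). Acly, the ATP citrate lyase that supplies cytosolic acetyl-CoA for fatty acid and cholesterol synthesis, gave 505, 735 and 433 in HD and 243, 134 and 255 in LD on probe set 3, with 145 to 230.3 in FBS and 91.1 to 186 in RA/Fsk. HD was again the highest of the 4 groups, by 1.40 ± 0.30 log2 (adjusted p = 0.0332, range 0.00923 to 0.165) over LD. Dhcr7, the reductase of the last step of cholesterol synthesis, gave 832, 718 and 648 in HD and 410.2, 417 and 446 in LD on probe set 2 and 170.3 to 211 in FBS and 257 to 389 in RA/Fsk. Every HD culture stood above every other culture, and HD exceeded LD by 0.78 ± 0.16 log2 (adjusted p = 0.0311, range 0.00218 to 0.108).

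Slc27a1, a fatty acid transport protein of the plasma membrane, gave 208, 314 and 294 in HD and 119.9, 164 and 146 in LD, while both treated groups were as high as HD (262 to 346 in FBS and 279.8 to 386 in RA/Fsk). Here LD stood apart as the low group, by 0.89 ± 0.19 log2 (adjusted p = 0.0311, range 0.006 to 0.158). Aldh3a2, the fatty aldehyde dehydrogenase that clears long-chain aldehydes, gave 137, 169 and 214 in HD and 80.6, 59.6 and 47.1 in LD on probe set 2. Aldh3a2 differed by 1.41 ± 0.30 log2 (adjusted p = 0.0334, range 0.00434 to 0.195). Lta4h, the hydrolase that turns leukotriene A4 into leukotriene B4, gave 988, 878 and 913 in HD and 579, 607 and 511 in LD on probe set 2. HD lay above all other cultures, and Lta4h differed by 0.71 ± 0.15 log2 (adjusted p = 0.0264, range 0.000369 to 0.106). Of the lipid calls, Scd2 probe set 4, Acly, Dhcr7, Aldh3a2 and Lta4h did not pass without HD culture 1 (adjusted p 0.0501 to 0.108). Scd2 probe set 4, Acly, Dhcr7, Slc27a1, Aldh3a2 and Lta4h did not pass without HD culture 2 (adjusted p 0.0545 to 0.138). None of these 7 probe sets passed without HD culture 4 (adjusted p 0.075 to 0.195). Lipid calls also ended for Scd2 probe set 4, Acly, Dhcr7, Slc27a1 and Lta4h without LD culture 1 (0.0573 to 0.123), all of them without LD culture 3 (0.0529 to 0.15), and Dhcr7, Slc27a1, Aldh3a2 and Lta4h without LD culture 4 (0.0503 to 0.0949). Scd2 probe set 4 (1.22 log2), Scd2 probe set 5 (0.996 log2), Acly (0.96 log2), Dhcr7 (0.85 log2) and Aldh3a2 (1.01 log2) did not pass with the GAPDH covariate, which gave the differences in parentheses.

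The other probe sets of these genes moved less. On the brightest probe set of Scd2, levels were 2739, 2128 and 2049 in HD and 1443, 2242 and 2061 in LD, the groups overlapped and the difference was 0.28 ± 0.23 log2 (adjusted p = 0.632). The brightest of Acly gave 3843, 5795 and 5951 in HD and 3857, 5603 and 5646 in LD with overlap, at 0.04 ± 0.28 log2 (adjusted p = 0.965). The brightest of Dhcr7 kept the groups apart, with 1202, 1273 and 1101 in HD and 634, 828 and 873 in LD, but did not pass at 0.62 ± 0.17 log2 (adjusted p = 0.103). Further genes of the pathway stood higher in HD without passing. Fasn, the fatty acid synthase, gave 844, 1743 and 1143 in HD and 691, 488 and 952 in LD with overlap. Fasn differed by 0.79 ± 0.25 log2 (adjusted p = 0.166). Gpam, which starts glycerolipid synthesis at the mitochondrion, gave 197, 183 and 141 in HD and 79.5, 9.9 and 44.7 in LD. Gpam differed by 2.16 ± 0.68 log2 (adjusted p = 0.163), and by 0.26 log2 (adjusted p = 0.777) with the GAPDH covariate. Taken by the brightest probe set of each gene, 0 of 42 genes on the list of fatty acid synthesis and lipid storage passed (at an unadjusted p under 0.05, 5 were higher and 2 lower), with a median of 0.04 log2, and 0 of 21 on that of cholesterol synthesis and uptake (1 higher and 1 lower), with a median of 0.06. Over all 4736 genes, taken the same way, 22 passed (0.465%), 15 higher (0.317%) and 7 lower (0.148%), and the median was -0.08. The calls of Scd2, Acly and Dhcr7 come from dimmer probe sets of these genes.

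The 200 bases upstream of the annotated start of these genes are printed because the genes share a function and a direction. The CCAAT box, bound by the factor NF-Y and common in promoters of lipid synthesis genes, is in capitals where it or its complement occurs. The sequences are RefSeq's, on GRCr8, 5′ to 3′ in the direction of transcription, and the build of the array annotation is not given in the sources used here. Scd2 lies at chr1:253118177-253118376 (+ strand), Acly at chr10:85963632-85963831 (- strand), Dhcr7 at chr1:208444234-208444433 (+ strand), Slc27a1 at chr16:18312767-18312966 (+ strand), Aldh3a2 at chr10:46448336-46448535 (- strand) and Lta4h at chr7:29856671-29856870 (+ strand).
Scd2: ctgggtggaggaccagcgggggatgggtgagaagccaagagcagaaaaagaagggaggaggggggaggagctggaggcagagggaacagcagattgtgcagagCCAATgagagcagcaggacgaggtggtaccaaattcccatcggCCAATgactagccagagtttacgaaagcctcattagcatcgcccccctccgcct
Acly: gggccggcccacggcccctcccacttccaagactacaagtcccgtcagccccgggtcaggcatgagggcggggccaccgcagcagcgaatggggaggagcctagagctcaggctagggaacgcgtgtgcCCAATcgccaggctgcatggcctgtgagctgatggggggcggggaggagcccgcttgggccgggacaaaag
Dhcr7: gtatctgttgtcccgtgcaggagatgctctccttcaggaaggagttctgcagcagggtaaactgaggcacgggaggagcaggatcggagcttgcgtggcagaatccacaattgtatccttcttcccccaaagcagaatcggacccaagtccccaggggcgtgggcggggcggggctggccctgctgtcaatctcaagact
Slc27a1: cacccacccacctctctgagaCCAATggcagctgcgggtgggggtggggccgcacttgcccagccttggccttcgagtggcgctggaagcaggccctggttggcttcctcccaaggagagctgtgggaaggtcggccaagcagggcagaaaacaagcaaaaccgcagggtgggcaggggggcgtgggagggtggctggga
Aldh3a2: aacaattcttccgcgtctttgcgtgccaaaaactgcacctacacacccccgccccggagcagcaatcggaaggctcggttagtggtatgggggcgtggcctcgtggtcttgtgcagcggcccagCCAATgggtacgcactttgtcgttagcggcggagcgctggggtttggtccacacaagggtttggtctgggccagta
Lta4h: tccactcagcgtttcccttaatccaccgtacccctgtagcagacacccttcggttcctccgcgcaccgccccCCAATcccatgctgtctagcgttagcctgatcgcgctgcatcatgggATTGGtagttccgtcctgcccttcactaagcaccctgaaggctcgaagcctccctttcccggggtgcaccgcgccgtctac
A CCAAT or ATTGG occurred in 5 of these 6 windows, beginning 97 and 54 bases before the start in Scd2, 71 in Acly, 179 in Slc27a1, 76 in Aldh3a2 and 128 and 81 in Lta4h, and in 0 places in Dhcr7. Of 33469 RefSeq promoter windows of the same length 29.2% held one. The GC box GGGCGG or CCGCCC occurred in Acly, Dhcr7, Aldh3a2 and Lta4h, against 28.6% of windows. A match of letters is a description and no evidence of binding, and the genes were picked for their change.

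Fgfr2, Pik3r2, Prkca, Marcks and Gnai2, which act in signalling from the cell membrane, are given next. Fgfr2, a receptor for fibroblast growth factors, gave 25.1, 43.0 and 48.3 in HD and 9.1, 10.3 and 8.7 in LD on probe set 3, a dim probe set, with 60.2 to 101 in FBS and 5.9 to 9.1 in RA/Fsk. HD and the serum-treated cells were high and the others near the floor of the array, and HD exceeded LD by 1.57 ± 0.30 log2 (adjusted p = 0.0173, range 0.006 to 0.123). The remaining probe sets of Fgfr2 differed by 0.97 ± 0.52 log2, -0.995 ± 0.44 log2 and 0.37 ± 0.42 log2, so that probe set 2 lay in the opposite direction. Pik3r2, a regulatory subunit of phosphoinositide 3-kinase, gave 58.7, 95.2 and 75.5 in HD and 4.3, 3.9 and 26.3 in LD on probe set 2, where 2 of the 3 LD cultures were near zero. The treated cultures were at 59.3 to 98.2 in FBS and 39.0 to 115 in RA/Fsk, above all of LD, and the difference of 2.54 ± 0.46 log2 (adjusted p = 0.0127, range 0.000165 to 0.075) was the largest of all rises. Since 2 LD values are near zero its size moves with the pseudocount, from 3.11 with a pseudocount of 1 to 1.99 with 25% of the median, where it equals Scd2 probe set 4 (1.99). Its brighter probe set gave 62.5, 67.1 and 61.3 in HD and 28.7, 31.1 and 60.5 in LD, at 0.67 ± 0.37 log2 (adjusted p = 0.435).

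Prkca, protein kinase C alpha, gave 24.0, 43.2 and 40.0 in HD and 7.0, 6.0 and 2.9 in LD. Here LD lay below every other culture, and the difference was 1.97 ± 0.36 log2 (adjusted p = 0.0131, range 0.00758 to 0.0865). It is also a dim probe set. Marcks, a substrate of protein kinase C that binds actin and membrane phosphoinositides, gave 819, 1004 and 914 in HD and 429.6, 319 and 484 in LD on probe set 2 and 533 to 713 in FBS and 317 to 521 in RA/Fsk. HD lay above all others, by 1.16 ± 0.19 log2 (adjusted p = 0.00563, range 0.00012 to 0.0678) over LD. The brightest Marcks probe set gave 1039.7, 609.5 and 641 in HD and 667, 932 and 641 in LD with overlap, at 0.01 ± 0.20 log2 (adjusted p = 0.991). Gnai2, the alpha subunit of an inhibitory G protein, gave 1318, 1628 and 1971 in HD and 935, 794 and 1056 in LD. Gnai2 differed by 0.81 ± 0.18 log2 (adjusted p = 0.0499, range 0.0299 to 0.247). Its other 2 probe sets also kept HD above LD, by 0.61 ± 0.16 log2 and 0.48 ± 0.23 log2. Of the signalling calls, Fgfr2, Pik3r2, Prkca and Gnai2 did not pass without HD culture 2 (adjusted p 0.0666 to 0.123). Fgfr2, Pik3r2, Prkca and Gnai2 did not pass without HD culture 4 (adjusted p 0.075 to 0.247). Signalling calls also ended for Fgfr2, Pik3r2 and Gnai2 without LD culture 1 (0.0573 to 0.122), and Fgfr2, Pik3r2 and Gnai2 without LD culture 3 (0.0562 to 0.183). Fgfr2 (1.60 log2), Prkca (1.90 log2) and Marcks (0.80 log2) did not pass with the GAPDH covariate, which gave the differences in parentheses.

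Around these genes, Fgfr1, the receptor through which FGF-2 mainly acts on neural progenitors, gave 199, 205 and 296 in HD and 84.4, 62.6 and 178 in LD. HD lay above LD in all cultures, at 1.18 ± 0.29 log2 (adjusted p = 0.0635), without passing. Fgf2 itself was dim, at 17.3, 24.4 and 18.6 in HD and 64.8, 62.9 and 41.4 in LD. Fgf2 differed by -1.28 ± 0.49 log2 (adjusted p = 0.26). Of 39 genes on the list of FGF and EGF signalling 0 passed by their brightest probe set, 3 were higher and 3 lower at an unadjusted p under 0.05, and the median was -0.08 log2. Over all genes 5.41% were higher and 7.20% lower at that level.

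Regulators of transcription and protein turnover gave 4 calls. Id3, which binds basic helix-loop-helix factors and keeps them off DNA, is a standard target of bone morphogenetic protein signalling. It gave 556, 1031 and 1041 in HD and 429, 247 and 124 in LD, against 1689 to 2589 in FBS and 129 to 411 in RA/Fsk, and the 3 LD cultures spread more than 3-fold. The difference of 1.81 ± 0.41 log2 (adjusted p = 0.0499, range 0.00582 to 0.22) passed narrowly. Probe set 2 gave 177, 341 and 290.4 in HD and 168, 88.7 and 70.3 in LD, at 1.31 ± 0.31 log2 (adjusted p = 0.0617). Its relative Id1 gave 264, 429.5 and 577 in HD and 249, 237 and 129.6 in LD. Id1 differed by 1.01 ± 0.35 log2 (adjusted p = 0.211). Serum-treated cells stood at 697 to 1208. On the list of BMP and TGF-beta signalling, Id3 was the 1 gene of 42 that passed, and the median was 0.01 log2. Bmp6, a ligand of that pathway, gave 84.9, 67.4 and 58.0 in HD and 138, 96.2 and 91.3 in LD and lay in the other direction at -0.59 ± 0.23 log2 (adjusted p = 0.276).

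Tcf12, a basic helix-loop-helix factor of the E-protein class, gave 672, 509 and 588 in HD and 246, 257 and 346 in LD and 171 to 201 in FBS and 88.5 to 140.2 in RA/Fsk. The groups followed one order, with HD highest, LD next and both treated groups lowest, and HD exceeded LD by 1.05 ± 0.19 log2 (adjusted p = 0.0114, range 0.000284 to 0.0877). Probe set 2 of Tcf12 gave the same order of HD over LD, by 0.82 ± 0.27 log2 (adjusted p = 0.181). Trim32, a ubiquitin ligase known from neural progenitors, gave 268, 302 and 342 in HD and 111, 116 and 144 in LD. Again HD lay above all other cultures, by 1.27 ± 0.25 log2 (adjusted p = 0.0212, range 0.000812 to 0.125) over LD. Oaz2, an antizyme that directs ornithine decarboxylase to breakdown and so limits polyamine synthesis, gave 5146, 5477 and 5316 in HD and 2854, 1923 and 2572 in LD. Oaz2 differed by 1.14 ± 0.24 log2 (adjusted p = 0.0315, range 0.00212 to 0.145). The treated cultures gave 3853 to 5274 in FBS and 2510.3 to 5471 in RA/Fsk, and 2 of the 4 FBS cultures and 1 of the 4 RA/Fsk cultures lay within the HD range. Of the regulator calls, Tcf12 and Oaz2 did not pass without HD culture 1 (adjusted p 0.052 to 0.0716). Id3, Trim32 and Oaz2 did not pass without HD culture 2 (adjusted p 0.0738 to 0.157). None of these 4 probe sets passed without HD culture 4 (adjusted p 0.0677 to 0.22). Regulator calls also ended for Tcf12, Trim32 and Oaz2 without LD culture 1 (0.055 to 0.0805), all of them without LD culture 3 (0.0562 to 0.145), and Id3 and Oaz2 without LD culture 4 (0.0523 to 0.124). Id3 (1.37 log2), Tcf12 (0.83 log2) and Oaz2 (1.19 log2) did not pass with the GAPDH covariate, which gave the differences in parentheses.

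**Figure D2:**
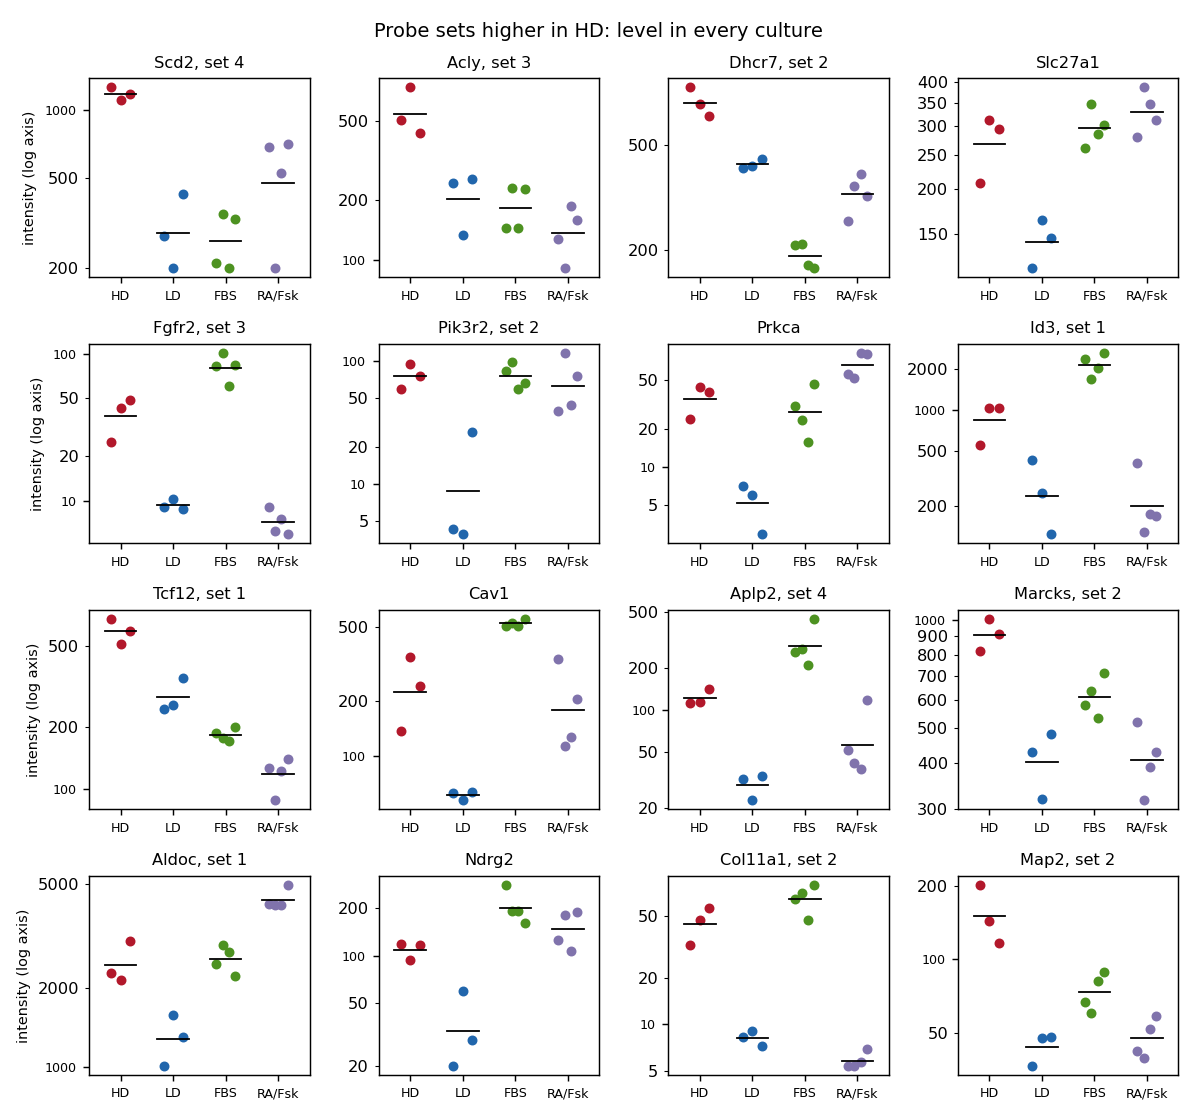
Intensity (y axes, log scale) of 16 probe sets of genes higher in HD, 1 point per culture in each of the 4 groups, with the group mean on the log2 scale as a bar. Scd2, Acly, Dhcr7, Tcf12, Marcks and Map2 are highest in HD, while for Cav1, Aldoc, Ndrg2, Prkca and Slc27a1 all LD cultures lie below all other groups.

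Cav1, Ap2b1, Rab11a and Arf3 are proteins of membrane traffic that rose. Cav1, the coat protein of caveolae, gave 136, 342 and 239 in HD and 63.1, 58.2 and 64.4 in LD, a spread of more than 2-fold within HD and almost none within LD. The treated cultures lay higher than LD throughout (508 to 549.6 in FBS and 114 to 337 in RA/Fsk), and HD exceeded LD by 1.78 ± 0.34 log2 (adjusted p = 0.0156, range 0.000475 to 0.122). Ap2b1, the beta subunit of the clathrin adaptor AP-2, gave 324, 261 and 345 in HD and 162, 125 and 175 in LD on probe set 2. LD lay below all other cultures, and Ap2b1 differed by 0.99 ± 0.19 log2 (adjusted p = 0.019, range 0.00133 to 0.123). Rab11a, the GTPase of recycling endosomes, gave 469.8, 371 and 339 in HD and 213, 223 and 254 in LD on probe set 2. Rab11a differed by 0.75 ± 0.15 log2 (adjusted p = 0.0264, range 0.000618 to 0.103). Arf3, a GTPase of the Golgi, gave 170.2, 169 and 164 in HD and 82.8, 70.6 and 73.5 in LD, with the tightest HD values of the group. Arf3 differed by 1.10 ± 0.25 log2 (adjusted p = 0.0471, range 0.00997 to 0.204). Their brightest or other probe sets, where there were any, differed by 0.26 ± 0.22 log2 and 0.80 ± 0.25 log2 for Ap2b1 and by 0.31 ± 0.17 log2 and 0.57 ± 0.24 log2 for Rab11a. Cav1 was the 1 gene of 16 on the list of caveolae and lipid rafts that rose, and the list's median was -0.04 log2. Of the traffic calls, Ap2b1, Rab11a and Arf3 did not pass without HD culture 1 (adjusted p 0.0661 to 0.105). Cav1, Rab11a and Arf3 did not pass without HD culture 2 (adjusted p 0.0709 to 0.121). None of these 4 probe sets passed without HD culture 4 (adjusted p 0.0503 to 0.154). Traffic calls also ended for all of them without LD culture 1 (0.0514 to 0.0978), all of them without LD culture 3 (0.0664 to 0.139), and Arf3 without LD culture 4 (0.0865). None of the traffic calls passed with the GAPDH covariate, at Cav1 (1.31 log2), Ap2b1 (0.86 log2), Rab11a (0.73 log2) and Arf3 (0.60 log2).

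Aplp2, Aph1a, F3 and Pttg1ip are proteins of the cell membrane that rose. Aplp2, a relative of the amyloid precursor protein that gamma-secretase cleaves, gave 112, 114 and 141 in HD and 31.9, 22.7 and 33.6 in LD on probe set 4. Aplp2 differed by 1.90 ± 0.35 log2 (adjusted p = 0.0136, range 0.00102 to 0.104). Probe set 3 gave 181, 208 and 211 in HD and 46.3, 31.2 and 122 in LD, where LD culture 4 came closest to HD. There Aplp2 differed by 1.72 ± 0.39 log2 (adjusted p = 0.0499, range 0.00302 to 0.185). The 2 brighter probe sets differed by 0.42 ± 0.22 log2 and 0.41 ± 0.26 log2, and serum-treated cultures were higher than HD on both called probe sets (335 to 709 and 209.9 to 445). Aph1a, a subunit of gamma-secretase, gave 232, 256 and 251 in HD and 167, 117 and 133 in LD on probe set 2. In this gene too LD lay below all other cultures, by 0.82 ± 0.17 log2 (adjusted p = 0.0242, range 0.00868 to 0.131). Psen2, a catalytic subunit of the same complex, gave 17.0, 37.9 and 47.2 in HD and 59.5, 66.2 and 44.3 in LD, overlapping and in the other direction at -0.73 ± 0.33 log2 (adjusted p = 0.342). Of 19 genes on the list of the Notch pathway, which gamma-secretase also serves, 0 passed by the brightest probe set, 1 was higher and 1 lower at an unadjusted p under 0.05, and the median was 0.09 log2.

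F3, the tissue factor that starts blood clotting and is abundant in astrocytes, gave 154, 166 and 177 in HD and 85.0, 89.1 and 79.5 in LD. F3 differed by 0.93 ± 0.19 log2 (adjusted p = 0.0227, range 0.000641 to 0.123). Serum-treated cells held more still, at 321 to 404. Pttg1ip, a membrane protein first found as a partner of securin, gave 844, 793 and 946 in HD and 538, 555 and 560.2 in LD. Pttg1ip differed by 0.64 ± 0.12 log2 (adjusted p = 0.0142, range 0.00103 to 0.0949). In both, LD lay below all other cultures. Of the surface protein calls, Aplp2 probe set 3 and Aph1a did not pass without HD culture 1 (adjusted p 0.0515 to 0.0902). Aplp2 probe set 3, Aph1a and F3 did not pass without HD culture 2 (adjusted p 0.0767 to 0.128). None of these 5 probe sets passed without HD culture 4 (adjusted p 0.0916 to 0.185). Surface protein calls also ended for Aplp2 probe set 3, F3 and Pttg1ip without LD culture 1 (0.057 to 0.15), all of them without LD culture 3 (0.0562 to 0.184), and Aph1a and F3 without LD culture 4 (0.0579). Aplp2 probe set 3 (1.33 log2), Aplp2 probe set 4 (1.43 log2) and Aph1a (0.59 log2) did not pass with the GAPDH covariate, which gave the differences in parentheses.

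Astrocyte-type metabolism was represented by 2 genes that rose. Aldoc, the aldolase of astrocytes and Purkinje cells, was the 1 gene with several probe sets of which all were called. Probe set 1 gave 2283, 2138 and 3017 in HD and 1008, 1576 and 1299 in LD, and all LD cultures lay below all other cultures, with 2226 to 2907 in FBS and 4141 to 4943 in RA/Fsk. The difference was 0.94 ± 0.17 log2 (adjusted p = 0.0127, range 0.000134 to 0.0897). Probe set 2 gave 1912, 1602 and 2157 in HD and 992, 972 and 1092 in LD, at 0.88 ± 0.17 log2 (adjusted p = 0.0156, range 0.000624 to 0.114). Ndrg2, a protein of mature astrocytes, gave 118, 94.4 and 117 in HD and 20.2, 60.1 and 29.4 in LD, likewise lowest in LD. Ndrg2 differed by 1.58 ± 0.31 log2 (adjusted p = 0.022, range 0.000165 to 0.118). Abhd14b, a small hydrolase, gave 56.9, 68.2 and 76.1 in HD and 19.9, 24.2 and 34.7 in LD and reached 231 to 271 in RA/Fsk. HD exceeded LD in it by 1.22 ± 0.22 log2 (adjusted p = 0.0114, range 0.0013 to 0.141). Sardh, the mitochondrial sarcosine dehydrogenase, gave 104, 56.6 and 133 in HD and 23.1, 16.5 and 20.7 in LD on probe set 2. Sardh differed by 1.97 ± 0.35 log2 (adjusted p = 0.0114, range 0.000618 to 0.0865). Its brighter probe set differed by 0.22 ± 0.22 log2 (adjusted p = 0.69). Of the metabolic calls, Aldoc probe set 2 and Ndrg2 did not pass without HD culture 1 (adjusted p 0.0555 to 0.0696). Ndrg2 did not pass without HD culture 2 (adjusted p 0.0551). None of these 5 probe sets passed without HD culture 4 (adjusted p 0.0806 to 0.118). Metabolic calls also ended for Aldoc probe set 1, Aldoc probe set 2 and Ndrg2 without LD culture 1 (0.0603 to 0.0962), Aldoc probe set 2 and Sardh without LD culture 3 (0.0536 to 0.0745), and Ndrg2 without LD culture 4 (0.0579). Aldoc probe set 2 (0.79 log2) and Sardh (1.71 log2) did not pass with the GAPDH covariate, which gave the differences in parentheses.

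Some other astrocyte and glycolytic genes, those of smallest p on their lists, were higher in level in HD without passing. Glul, the glutamine synthetase of astrocytes, gave 884, 1011 and 1007 in HD and 528, 562 and 673 in LD. Glul differed by 0.72 ± 0.18 log2 (adjusted p = 0.0767). S100b, a calcium-binding protein of glia, gave 377, 483 and 651 in HD and 334, 295 and 336 in LD. S100b differed by 0.61 ± 0.19 log2 (adjusted p = 0.164). Slc1a3, the glial glutamate transporter, gave 240.0, 111 and 281 in HD and 62.5, 109 and 98.4 in LD. Slc1a3 differed by 1.12 ± 0.33 log2 (adjusted p = 0.138). Of 20 astrocyte genes 12 were above 0 (lowest Mt3 at -0.67 log2), 2 rose and 0 fell, 5 were higher and 0 lower at an unadjusted p under 0.05, and the median was 0.09 log2. In glycolysis, Pfkl, a phosphofructokinase, gave 386, 434 and 592 in HD and 259.9, 179 and 322 in LD. Pfkl differed by 0.89 ± 0.22 log2 (adjusted p = 0.073). Aldoa, the general aldolase, gave 2108, 2253 and 3131 in HD and 1630.1, 1211 and 1488 in LD. Aldoa differed by 0.78 ± 0.21 log2 (adjusted p = 0.1). The list of glycolysis and glucose transport had 21 of 36 genes above 0 (lowest Pgam2 at -0.67 log2) and a median of 0.09. In it 1 gene rose (Aldoc), and 7 were higher and 0 lower at an unadjusted p under 0.05. Of the 36 genes 7 lay wholly higher and 5 wholly lower in HD, against 7.26% and 11.5% of all genes. The array's hexokinase controls, which report the first enzyme of glycolysis and were outside the fit, averaged 7.26, 7.59 and 7.48 log2 in HD and 5.57, 4.26 and 6.54 in LD without overlap (2-sided exact permutation p = 0.1). Their difference was 2.37 log2 at the 5′ end, 2.26 in the middle and 1.32 at the 3′ end, and the part of the weaker 5′ signal of LD RNA in it was not tested. On the hypoxia list, which shares Aldoc, 1 of 30 rose and the median was 0.21, with 18 above 0 (lowest Hmox1 at -1.32 log2). At an unadjusted p under 0.05, 6 of the 30 were higher and 2 lower, against 5.41% and 7.20% of all genes. In HD 8 lay wholly higher and 3 wholly lower, against 7.26% and 11.5% of all genes. Hif1a, the oxygen-sensitive factor itself, gave 346, 349 and 357 in HD and 194, 219.5 and 257 in LD. Hif1a differed by 0.65 ± 0.17 log2 (adjusted p = 0.0986).

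Matrix and cytoskeleton contributed 3 genes. Col11a1, a fibrillar collagen chain, gave 32.6, 47.4 and 56.0 in HD and 8.3, 9.1 and 7.2 in LD on probe set 2, a dim probe set, with 47.2 to 79.2 in FBS and 5.4 to 6.9 in RA/Fsk. HD and serum-treated cells carried signal and the others lay near the floor, and HD exceeded LD by 1.91 ± 0.29 log2 (adjusted p = 0.0033, range 0.000455 to 0.0396). The brighter Col11a1 probe set overlapped, with 82.3, 31.4 and 49.9 in HD and 32.4, 30.2 and 39.5 in LD. Of 60 extracellular matrix genes 0 passed by the brightest probe set, 2 were higher and 3 lower at an unadjusted p under 0.05, and the median was 0.01 log2. Pls3, an actin-bundling plastin, gave 83.6, 67.2 and 93.6 in HD and 29.8, 11 and 33.0 in LD and 332 to 454 in serum-treated cells. Pls3 differed by 1.63 ± 0.33 log2 (adjusted p = 0.0242, range 0.00223 to 0.129). Map2, a microtubule protein used as a marker of neurons, gave 202, 145 and 117 in HD and 36.5, 47.6 and 48.0 in LD on probe set 2, above all other cultures (60.1 to 88.5 in FBS and 39.2 to 58.3 in RA/Fsk). Map2 differed by 1.68 ± 0.26 log2 (adjusted p = 0.00368, range 1.58e-05 to 0.0392). Its brightest probe set gave 801, 541 and 602 in HD and 462, 688 and 728 in LD with overlap, at 0.06 ± 0.23 log2 (adjusted p = 0.939). No gene of the neuron list (41 genes, median -0.12 log2) passed by its brightest probe set, with 3 higher and 2 lower at an unadjusted p under 0.05. The calls of Col11a1 and Map2 passed under all 17 alternatives. The alternative without dim probe sets went by the highest of the 4 group means. It kept Col11a1 probe set 2 through the FBS level, so it was no test of the dim HD and LD signal. Pls3 did not pass without HD culture 1, 2 or 4 (adjusted p 0.0551 to 0.129) or LD culture 3 (0.0971), nor with the GAPDH covariate (1.34 log2).

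Disagreement between probe sets of one gene ran through the rises. Of the 30 genes, 19 had several probe sets, and in 4 of these the brightest was called. The 37 other probe sets of these genes had a median of 0.41 log2 (-0.995 to 1.52), with 30 above 0. In 12 of them the cultures lay wholly higher in HD, as in 7.81% of all probe sets. Probe sets report different stretches of a transcript, and the files do not say which. For Scd2, Acly, Marcks and Map2 the statement that HD exceeded LD holds for the probe sets named and not for the brightest. Aldoc, Gnai2, Id3 and Tcf12 had differences above 0 on each of their probe sets, and only in Aldoc did every probe set pass.

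**Figure D3:**
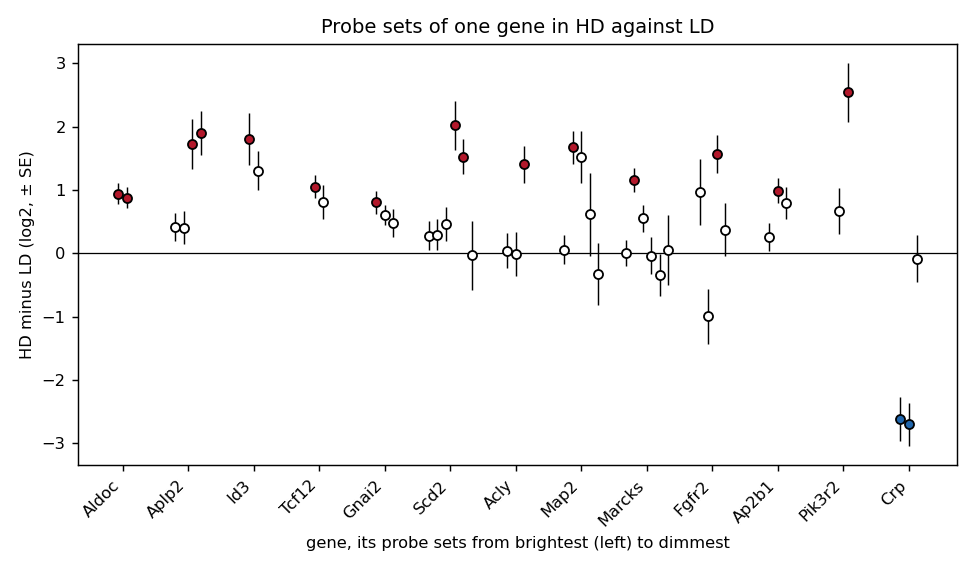
HD minus LD difference (y axis, log2, with its SE) of each probe set of 13 genes (x axis), ordered within a gene from brightest on the left to dimmest, filled where it passed. Aldoc is filled throughout, while Scd2, Acly, Map2 and Marcks have open brightest probe sets near 0 beside filled ones above 1, and Crp has 2 filled probe sets below -2 beside an open one near 0.

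The identity of the cells as progenitors was read from set markers. The intermediate filament gene Nes gave 921, 1119 and 1051 in HD and 969.8, 1433 and 1573 in LD on its brightest probe set. Vim, its partner in progenitors, gave 5199, 3173 and 4504 in HD and 3225, 4723 and 3707 in LD, and Fabp7, the fatty acid binding protein of radial glia, gave 758, 505 and 503 in HD and 446, 552 and 474 in LD. Groups overlapped in all 3, as they did for the progenitor gene Ptprz1 (1103, 643 and 772 in HD and 493, 681 and 798 in LD) and the receptor Notch1 (421, 552 and 408 in HD and 466, 638 and 422 in LD). Of 20 progenitor genes 0 passed, 3 were higher and none lower at an unadjusted p under 0.05, and their median was -0.02 log2. No probe set carried Sox2, Gfap or Tubb3 as its single symbol. Of the oligodendrocyte lineage, the transcription factor Sox10 gave 582, 563 and 602 in HD and 339.9, 439.8 and 470.3 in LD, at 0.49 ± 0.27 log2 (adjusted p = 0.449). Pdgfra, the receptor of oligodendrocyte progenitors, gave 919, 491 and 982 in HD and 562, 999 and 803 in LD, and the myelin enzyme gene Cnp gave 989, 841 and 974 in HD and 892, 1219.8 and 1027 in LD. All 3 were far above the median of all values of 49.9 in both groups. Of 14 genes on that list 0 passed, with 1 higher and 1 lower at an unadjusted p under 0.05.

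Markers of microglia were low, as were most of those of vessels and fibroblasts. The microglial genes Csf1r (6.1, 6.4 and 8.6 in HD and 9.3, 6.9 and 7.4 in LD) and Itgam (8.9, 3.9 and 4.4 in HD and 5.9, 2.7 and 2.2 in LD) stood near the floor of the array, and 4 of 20 genes on the microglial list reached the median of all values in HD or LD. The summed intensity of that list was 573 to 710.0 in HD and 676 to 869 in LD. For endothelial, mural and fibroblast genes 5 of 24 reached the median, and their sums were 1189 to 1712 in HD and 1415 to 1697 in LD. Col1a1, the collagen of fibroblasts, gave 83.4, 48.4 and 76.2 in HD and 84.3, 88.8 and 86.5 in LD, wholly lower in HD without passing. The summed astrocyte list was 14685 to 21898 in HD and 14465 to 17837 in LD, and the neuronal list 6916 to 7982 and 6963 to 7616. No gene of the microglial list, the endothelial, mural and fibroblast list or the 14 Schwann and neural crest genes passed. At an unadjusted p under 0.05 these lists had none higher and 1 lower, none higher and 2 lower, and 3 higher and 1 lower. Schwann cell genes summed to 3926 to 5091 in HD and 3769 to 3860 in LD, without overlap. They include S100b and Gap43, which neural cells also express, and their part in the results was not tested.

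Cystatin C and its protease targets were examined because of the name CCg. Cst3, the cystatin C gene, was among the brightest of the array, with 10427, 10252 and 15981 in HD and 12464, 14246 and 11147 in LD. The groups overlapped, and the difference of -0.07 ± 0.18 log2 (adjusted p = 0.902) took either sign over the alternatives. RA/Fsk cultures held less (4612 to 5926) and serum-treated ones as much as the progenitors (10499 to 13736). Ctsb, the cysteine protease cathepsin B, which cystatin C inhibits, gave 463, 361 and 488 in HD and 219, 239 and 326 in LD, wholly higher in HD at 0.74 ± 0.18 log2 (adjusted p = 0.0701) without passing. Psap, the precursor of the lysosomal saposins, gave 4349, 3955 and 5009 in HD and 3431, 3887 and 3424 in LD. Psap differed by 0.31 ± 0.12 log2 (adjusted p = 0.285). Of 17 genes on the list of cystatins and cathepsins 0 passed, 2 were higher and 1 lower at an unadjusted p under 0.05, and the median was 0.17 log2.

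Proliferation genes gave no call. Ccnd1, the cyclin D1 that growth factors induce, gave 2862, 1702 and 2384 in HD and 2966, 4197 and 3743 in LD on its brightest probe set, wholly lower in HD at -0.67 ± 0.21 log2 (adjusted p = 0.154). Cdkn1b, the cyclin-dependent kinase inhibitor p27, gave 73.2, 74.3 and 79.0 in HD and 23.1, 39.2 and 55.3 in LD, wholly higher in HD at 0.93 ± 0.30 log2 (adjusted p = 0.168). Of 40 cell cycle genes 0 passed, 3 were higher and 4 lower at an unadjusted p under 0.05, and 22 were above 0. Their differences ran from -0.67 log2 (Ccnd1) to 1.48 log2 (Kif11), with a median of 0.03 log2. Of 19 genes of cell cycle exit and contact inhibition 0 passed (1 higher and 1 lower at an unadjusted p under 0.05) with a median of 0.01. Neighbour contact was looked at through adhesion genes, of which 0 of 47 passed (5 higher and 3 lower at an unadjusted p under 0.05, median 0.07). The neural adhesion molecule Cntn1 gave 1997, 2611 and 2958 in HD and 1192, 1573 and 1512 in LD. Cntn1 differed by 0.81 ± 0.22 log2 (adjusted p = 0.0996). Ctnnd2, delta-catenin, gave 104, 126 and 170.0 in HD and 36.8, 36.4 and 96.2 in LD. Ctnnd2 differed by 1.28 ± 0.46 log2 (adjusted p = 0.226). Both lay wholly higher in HD. Thy1, a surface glycoprotein of neurons and fibroblasts, gave 7.9, 8.6 and 8.1 in HD and 22.8, 37.5 and 17.1 in LD, a dim signal wholly lower in HD at -1.17 ± 0.35 log2 (adjusted p = 0.148).

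Of the falls with a single symbol, Prrc2c, a large RNA-binding protein of stress granules, has 1 probe set. It gave 171, 182 and 123 in HD and 749.5, 686 and 413 in LD, with LD above all other cultures (89.3 to 159.6 in FBS and 219.9 to 332 in RA/Fsk). Prrc2c differed by -1.90 ± 0.25 log2 (adjusted p = 0.000758, range 5.56e-06 to 0.00878). It passed under every alternative. Eef1a1, the elongation factor that brings aminoacyl-tRNA to the ribosome, gave 175, 162 and 160.0 in HD and 505, 458 and 269.5 in LD on probe set 2. Eef1a1 differed by -1.24 ± 0.23 log2 (adjusted p = 0.0144, range 0.00241 to 0.0865). Its far brighter probe set gave 4601, 3521 and 3940.0 in HD and 4463, 4245 and 4062 in LD with overlap, at -0.09 ± 0.12 log2 (adjusted p = 0.78). Nf1, the Ras-inactivating neurofibromin, gave 196, 167 and 133 in HD and 357, 306 and 303 in LD on its brightest probe set. Nf1 differed by -0.95 ± 0.20 log2 (adjusted p = 0.0323, range 0.00133 to 0.181). The other 3 differed by 0.03 ± 0.22 log2, -0.41 ± 0.28 log2 and -0.44 ± 0.54 log2. Fabp6, the bile acid binding protein of the ileum, gave 1215, 949.9 and 864 in HD and 2463, 1662 and 1731 in LD. Fabp6 differed by -0.94 ± 0.17 log2 (adjusted p = 0.0137, range 0.00019 to 0.0952). HD was the lowest of the 4 groups for Fabp6 and Eef1a1, and LD was the highest for Nf1.

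A dimmer fall was that of Akr1d1, a steroid reductase of bile acid synthesis, at 60.8, 53.0 and 42.9 in HD and 151, 165 and 131 in LD and -1.44 ± 0.30 log2 (adjusted p = 0.0271, range 0.00133 to 0.149). Vip, vasoactive intestinal peptide, stood at 2.7, 4.5 and 7.4 in HD and 16.0, 26.4 and 24.6 in LD and -1.47 ± 0.28 log2 (adjusted p = 0.0166, range 0.00455 to 0.123). Pbsn, the prostate protein probasin, gave 3.5, 1.8 and 2.2 in HD and 12.5, 14.4 and 6.2 in LD on the dimmest of its 4 probe sets, at -1.06 ± 0.22 log2 (adjusted p = 0.0271, range 0.00434 to 0.134). Vip and Pbsn lay below the median of all values of 49.9 in both groups. Of the calls of Eef1a1, Nf1, Fabp6, Akr1d1, Vip and Pbsn, Akr1d1 and Vip did not pass without HD culture 1 (adjusted p 0.0508 to 0.0753). None of these 6 probe sets passed without HD culture 2 (adjusted p 0.0619 to 0.109). Eef1a1, Nf1, Fabp6, Akr1d1 and Pbsn did not pass without HD culture 4 (adjusted p 0.0865 to 0.181). These calls also ended for Eef1a1, Nf1, Fabp6, Akr1d1 and Pbsn without LD culture 1 (0.0619 to 0.123), Eef1a1, Nf1, Akr1d1, Vip and Pbsn without LD culture 3 (0.0745 to 0.113), and Nf1 without LD culture 4 (0.0523). Vip (-1.04 log2) and Pbsn (-1.23 log2) did not pass with the GAPDH covariate, which gave the differences in parentheses. Over the 9 genes that fell, 6 had several probe sets and in 0 were all called. Their 10 other probe sets had a median of -0.18 log2 (-0.44 to 0.30).

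The largest falls with a symbol were on probe sets annotated to Rpl19l4 and Crp. From knowledge outside the files, the sequence records behind these probe sets and several unnamed ones that fell are thought to hold LINE-1 repeat, a retrotransposon present in many copies. Probe sequences were not used here, so whether these probe sets report the genes of their symbols was not tested. The probe set annotated to Rpl19l4, a ribosomal protein L19-like gene, gave 290.2, 254 and 149.6 in HD and 2847, 2903 and 2433 in LD, with 81.6 to 155 in FBS and 496 to 1477 in RA/Fsk. Rpl19l4 differed by -3.58 ± 0.34 log2 (adjusted p = 0.000113, range 5.16e-08 to 0.00176). LD lay above all other cultures and RA/Fsk between LD and the rest. Crp, the acute phase protein of the liver, had 2 of 3 probe sets in the same pattern. Probe set 1 gave 312, 246 and 137 in HD and 1517, 1657 and 1012 in LD and 83.3 to 181 in FBS and 347 to 918 in RA/Fsk. Crp differed by -2.61 ± 0.35 log2 (adjusted p = 0.000916, range 8.09e-06 to 0.0102). Probe set 2 gave 269, 197 and 121 in HD and 1334, 1293 and 1098 in LD, at -2.70 ± 0.34 log2 (adjusted p = 0.000567, range 5.98e-06 to 0.00556). The third was near the floor in all groups, at 8.9, 10.4 and 11.1 in HD and 11.3, 15.6 and 7.3 in LD, at -0.09 ± 0.37 log2 (adjusted p = 0.944).

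Of 41 ribosomal protein genes by symbol, the Rpl19l4 probe set, with the doubt just given, was the 1 that passed. The median of the list was -0.16 log2, with 3 members above 0. At an unadjusted p under 0.05, 7 members were lower and 0 higher, against 7.20% and 5.41% of all genes. In HD 13 members lay wholly lower and 0 wholly higher, against 11.5% and 7.26% of all genes. Rpl17, a protein of the large subunit, gave 182, 149 and 152 in HD and 311, 265 and 226 in LD. Rpl17 differed by -0.71 ± 0.19 log2 (adjusted p = 0.106). Of 33 acute phase and blood plasma genes by symbol, the Crp probe set, under the same doubt, was the 1 that fell. The median of these 33 was -0.36, with 7 above 0 (1938 of 4736 genes, 40.9%, were above 0). At an unadjusted p under 0.05, 5 of them were lower and 0 higher, and 10 lay wholly lower in HD and 0 wholly higher. Proteasome subunits stood slightly lower in HD as a list, with 0 of 27 called and a median of -0.23, 4 of them above 0. At an unadjusted p under 0.05, 9 were lower and 0 higher, against 7.20% and 5.41% of all genes. In 11 of the 27 the cultures lay wholly lower in HD, against 11.5% of all genes. The list as a whole was not tested. Psma7, one of them, gave 2804, 3621 and 3224 in HD and 4193, 4884 and 4192 in LD, wholly lower in HD at -0.46 ± 0.14 log2 (adjusted p = 0.139).

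The remaining 27 falls carry no single symbol. Their median intensity was 146, 117 and 91.7 in HD and 420.4, 471 and 268 in LD, against 83.2 to 118 in FBS and 152 to 284 in RA/Fsk. Against LD, the median difference was -2.26 log2 in HD, -2.53 in FBS and -1.12 in RA/Fsk, and the 3 comparisons share the LD cultures. All 27 were low in HD and the groups did not overlap, with differences from -4.22 to -1.10. The largest gave 16.7, 11.5 and 10.4 in HD and 566, 402 and 150.0 in LD, a difference of -4.22 ± 0.68 log2 (adjusted p = 0.00556). One of the brightest gave 508, 523 and 317 in HD and 3120.3, 4580.0 and 2999 in LD, a difference of -2.98 ± 0.31 log2 (adjusted p = 0.000156).

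Part of these falls share a sequence record by their identifiers, and whether they report the same stretch of it was not tested. There were 3 sequence records with several called probe sets, of 7, 3 and 2 probe sets, of which 5, 2 and 2 fell. The median over their 12 probe sets was -2.57 log2 (-3.135 to -0.105). Of the 37 falls, 11 have a number sign in their identifier, a form for which the annotation table holds no entry (191 such probe sets were tested). The 37 falls may therefore stand for fewer than 37 independent transcripts.

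**Figure D4:**
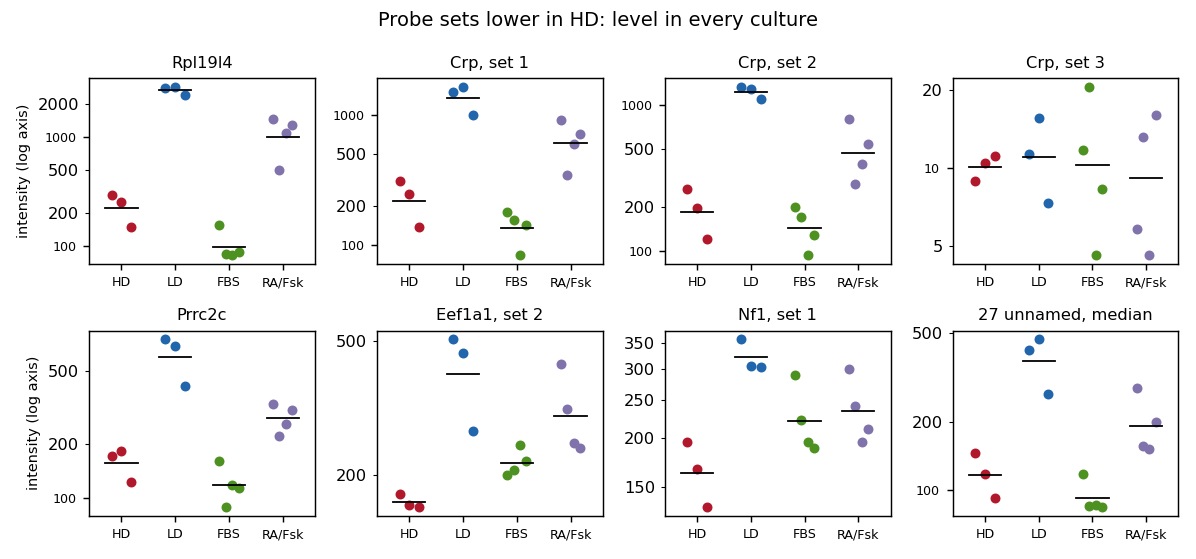
Intensity (y axes, log scale) of 7 probe sets of genes lower in HD, or tested beside one, and the median over the 27 falls without a single symbol, 1 point per culture, bars at the group mean on the log2 scale. For Rpl19l4, Crp probe sets 1 and 2, Prrc2c and the 27 unnamed ones, the LD mean is highest and the RA/Fsk mean lies between LD and the low HD and FBS groups, while Crp probe set 3 shows no order. In the unnamed set, 1 RA/Fsk culture (284) lies above LD culture 4 (268).

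Stress responses gave no call by the brightest probe set. Of 40 immediate early and stress kinase genes 0 passed, 2 were higher and 6 lower at an unadjusted p under 0.05, and the median was -0.14 log2. Klf6, a zinc finger factor of the early response, gave 107, 132 and 83.7 in HD and 144, 258 and 169 in LD. Klf6 differed by -0.77 ± 0.26 log2 (adjusted p = 0.192). Zfp36, which degrades AU-rich messenger RNAs, gave 139, 149 and 104 in HD and 265, 202 and 198 in LD. Zfp36 differed by -0.74 ± 0.25 log2 (adjusted p = 0.195). Sgk1, a kinase induced by serum, gave 112, 96.2 and 92.2 in HD and 123, 149.7 and 174 in LD. Sgk1 differed by -0.54 ± 0.19 log2 (adjusted p = 0.203). All 3 lay wholly lower in HD. On the list of endoplasmic reticulum stress and amino acid response 0 of 29 passed (4 higher and 2 lower at an unadjusted p under 0.05, median 0.16). Slc7a3, a carrier of cationic amino acids, gave 8.0, 5.4 and 10.6 in HD and 32.7, 27.3 and 26.8 in LD. Slc7a3 differed by -1.40 ± 0.34 log2 (adjusted p = 0.0617). Heat shock proteins (0 of 22, 4 higher and 2 lower at that p, median -0.16), metallothioneins and antioxidants (0 of 41, 3 and 4, median -0.14) and oxidative phosphorylation (0 of 55, 0 and 3, median -0.12) stood near the median of all genes. In the interferon response 0 of 37 passed, and 1 was higher and 7 lower at that p, against 5.41% and 7.20% of all genes. Its median was -0.18, with 9 genes above 0, against 40.9% of all genes.

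In the insulin-like growth factor system 0 of 23 genes passed, 2 were higher and 4 lower at an unadjusted p under 0.05, and the median was -0.28 log2. Igfbp2, a binding protein of these factors, gave 92.4, 75.7 and 135 in HD and 73.2, 43.5 and 22.8 in LD. Igfbp2 differed by 1.13 ± 0.30 log2 (adjusted p = 0.103). Serum-treated cells reached 2740.1 to 4166. Igf2r, the receptor that clears IGF2 and carries lysosomal enzymes, gave 137, 131 and 163 in HD and 79.2, 18.6 and 104 in LD. Igf2r differed by 1.30 ± 0.48 log2 (adjusted p = 0.234). In Wnt signalling 0 of 11 passed, 1 was higher and 3 lower at an unadjusted p under 0.05, with a median of 0.18. Rab3a, a GTPase of regulated secretion, gave 108, 113 and 121 in HD and 41.4, 35.8 and 57.3 in LD, wholly higher in HD at 1.28 ± 0.30 log2 (adjusted p = 0.055). Plat, tissue plasminogen activator, gave 64.3, 56.2 and 53.7 in HD and 33.0, 23.4 and 20.4 in LD, wholly higher in HD at 1.06 ± 0.26 log2 (adjusted p = 0.0647), and stood at 446 to 559 in serum-treated cells. Vegfb, a relative of the vascular growth factor, gave 160.3, 148 and 146 in HD and 78.9, 92.3 and 98.1 in LD. Vegfb differed by 0.73 ± 0.19 log2 (adjusted p = 0.0892).

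**Figure D5:**
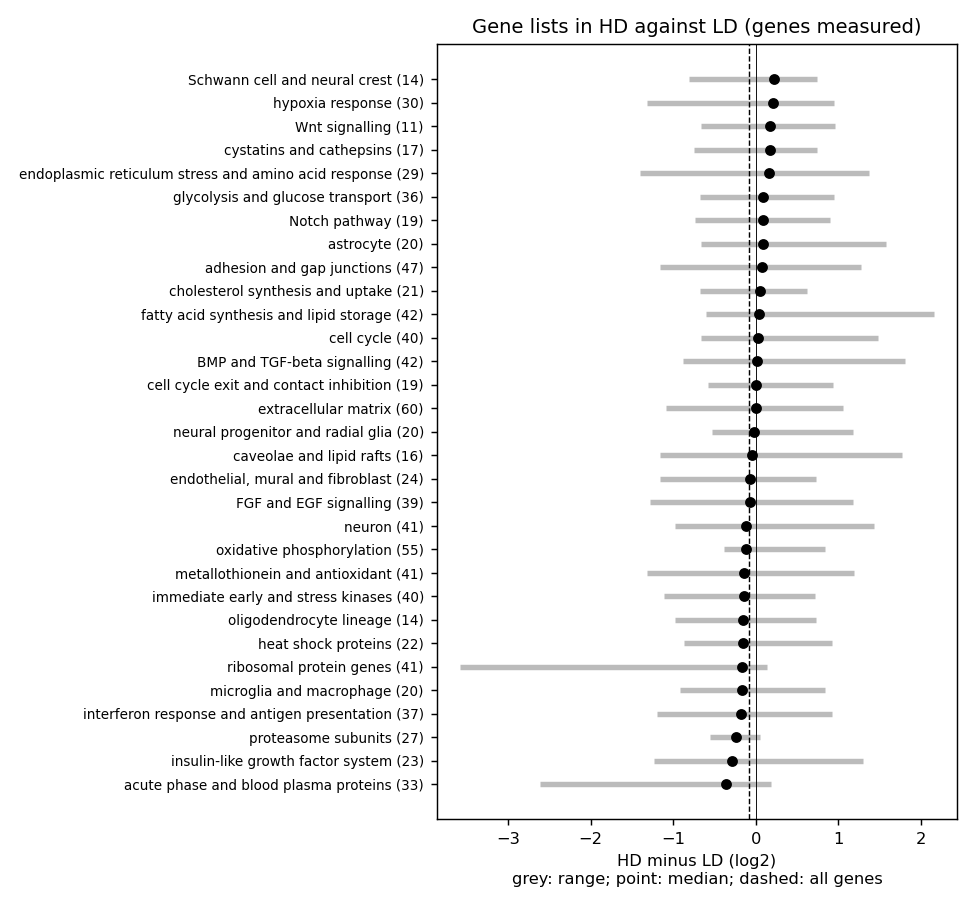
HD minus LD difference (x axis, log2) over the genes of 31 lists (rows, with the number measured), each gene by its brightest probe set, with the range of members in grey and the median as a point. List medians run from -0.36 (acute phase and blood plasma proteins) to 0.22 (Schwann cell and neural crest) around the median of all 4736 genes at -0.08 (dashed).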

How the data were processed

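Each of the 20 arrays has 1 deposited linear intensity for each of 8799 probe sets. Trimmed means near a common value point to scaling by the authors, but background correction, probe summary, scaling and detection calls were not given in the sources used here. The table holds 6 zeros, 4.99 is 10% of the median positive value of 49.9, and 59 control probe sets were left out, which leaves 8740. Of these 7006 carry 1 gene symbol in the annotation, 308 several and 1426 none, for 4736 genes.

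Arrays sharing a group and a title number were averaged on the log2 scale. All 4 groups (14 cultures) were fitted with limma 3.58.1 in R 4.3.3 (lmFit, eBayes with an intensity trend, 10 residual degrees of freedom) so that they share 1 estimate of spread, and HD was contrasted with LD. The median standard error was 0.30 log2, a precision limited by the few arrays. Genes were named where a probe set with 1 symbol passed, or as set markers and members of 31 lists with the smallest p. The genes, lists and comparison were chosen with earlier results of these data known. The 17 alternatives were pseudocounts of 1 and of 25% of the median, HD and LD alone, quantile normalization, median centring, dim probe sets left out, no trend, a replicate block, each array as its own sample, the first array of each number alone, a GAPDH covariate, and each of the 6 HD and LD cultures left out. Dim probe sets were left out where the highest of the 4 group means, FBS and RA/Fsk included, lay under the median of all values of 49.9.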

Additional observations from a re-analysis of the deposited data

Results flagged for a closer look

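Only the FBS and RA/Fsk groups hold 4 cultures. In each of them 1 culture was set against the other 3 for each of the 43 called probe sets with 1 symbol. Of 86 such groups 5 had a culture that stood apart by Dixon's 95% criterion, and chance gives about 1 in 20. These treated groups enter the contrast of HD with LD only through the estimate of spread. In RA/Fsk culture 4 the level of Aldoc on probe set 1 was 4942.6, against 4141 to 4194 in the other RA/Fsk cultures. The same culture gave 185.2 for Aplp2 on probe set 3, against 80.6 to 92.8. In FBS culture 3 Oaz2 was 3853.2, against 5095 to 5274. In FBS culture 4 Pls3 was 454.4, against 332 to 346. In FBS culture 1 Rpl19l4 was 155.4, against 81.6 to 87.1.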

How the results depend on the processing

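The count of 75 called probe sets ran from 56 to 112 over the settings that keep all cultures, except that it was 465 with each array as its own sample, where arrays of one number count as replicates. With 1 culture left out it ran from 23 to 104. The 38 rises became 24 in the fit of HD and LD alone, 20 without a trend, 23 with the GAPDH covariate, 62 with dim probe sets left out and 242 over single arrays, and 3 to 56 with 1 culture left out. The 37 falls became 56 with the GAPDH covariate and 223 over single arrays, and 20 to 48 with 1 culture left out. With the replicate block 74 passed (31 higher, 43 lower), 55 of them among the 75. Title numbers were not shown to pair the cultures. Deviations of HD and LD cultures of number 1 correlated at r = 0.143 and of number 4 at 0.09, against -0.192 to 0.0955 for unlike numbers. The value of number 1 was thus above that of every unlike pair. So few pairs of one number cannot decide whether the numbers pair the cultures.

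Of 43 called probe sets with 1 symbol 6 passed under every alternative (Col11a1, Map2, both called Crp probe sets, Prrc2c and Rpl19l4) and 0 changed direction. With dim probe sets left out, Col11a1 was kept only through its FBS level. Without HD culture 4, 35 of the 43 did not pass. The number not passing was 23 with the GAPDH covariate, 22 in the fit of HD and LD alone, 18 without a trend, 15 with the replicate block, 10 with the first arrays alone, 6 each with quantile normalization and median centring, 2 with a pseudocount of 1 and 1 with the larger one. Differences near 0 that had not passed changed sign. Cst3 came to 0.20 with quantile normalization, 0.031 with median centring, 0.058 with the replicate block, 0.10 with the GAPDH covariate and -0.28 to 0.04 with 1 culture left out. On the brightest probe sets, Marcks came to -0.02 with quantile normalization and Eef1a1 to 0.012 with median centring, and with 1 culture left out Acly ran from -0.14 to 0.24, Eef1a1 from -0.19 to 0.001, Map2 from -0.15 to 0.18 and Marcks from -0.23 to 0.18. The causes were not tested. The 3 cultures a side limit what can pass, with a median standard error of 0.30 log2.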

Other observations

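The probe sets of Pdgfra, the receptor for platelet-derived growth factor on glial progenitors, differed among themselves. The brightest overlapped between the groups, while probe set 2 gave 193, 122 and 167 in HD and 63.1, 48.5 and 67.5 in LD, and probe set 3 gave 126, 85.2 and 85.5 in HD and 33.0, 39.7 and 36.7 in LD. Neither passed (adjusted p = 0.088 and 0.182 in limma's test over all probe sets). All 4 probe sets of Col1a1 lay wholly lower in HD, by -0.33, -0.76, -0.46 and -1.13 log2, and none passed at an adjusted p under 0.05.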
